A study of Mus musculus with 1049 samples.

Results

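Enpp2 and 5 genes of the receptors and phosphatases that act on its product were followed across single fibroblasts from the dermis of newborn, young and old mice. The 6 genes, out of 51777 measured, were Enpp2, Lpar1, Lpar4, Lpar6, Plpp1 and Plpp3. Enpp2 was selected on its higher level in old than in young cells, so that difference is given as a description without a test. The other 5 were listed by family, with the levels at all ages already known. Cells came from the skin of C57Bl/6 mice, with no other genotype or treatment named, at 3 ages: newborn (1.5 or 2.5 days), young (2 months) and old (18 months). They were stained for CD45, CD117, EpCam, CD31, CD34 and Pdgfra and sorted singly as fibroblasts into plate wells; a separate staining is described for subpopulations of newborn female littermates, and which staining gave the newborn cells here is not given in the sources used here. Smart-seq2, which copies polyadenylated RNA along its full length without molecular identifiers, was run in 2 experiments, with all 3 ages on each of the 9 plates. The cells kept were 158 and 91 newborn, 142 and 104 young and 126 and 114 old cells in experiments 1 and 2.

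Enpp2 encodes autotaxin, a secreted lysophospholipase D that makes lysophosphatidic acid (LPA) from lysophosphatidylcholine outside the cell. LPA signals through G protein-coupled receptors, of which Lpar1 is the best studied in fibroblasts, where it is tied to migration, contraction and fibrosis. Lipid phosphate phosphatases at the cell surface, among them the products of Plpp1 and Plpp3, remove the phosphate from LPA and so end the signal.

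Adding up the reads of all cells that shared an age and an experiment gave 6 sums, each with 119682449 to 195324769 reads, and so n = 2 for each age. Levels are CPM, the reads of a gene relative to all reads of a sum with TMM scaling, given with mean ± SD over both sums of an age. Mice are not identified in the labels, only experiments are, and p-values therefore measure the spread between experiments alone. Col1a1, Col1a2, Dcn and Lum, which define fibroblasts, were read in nearly all cells at every age. Of the adipocyte markers, another known source of autotaxin, Adipoq, Cidec, Lep, Retn and Cfd had no read, and the summed level of all 7 listed was 5.94 and 0.351 CPM in newborn sums, 0.0393 and 0 CPM in young sums and 0 and 0.0334 CPM in old sums. Median depth was 1068178 reads per newborn, 1187652 per young and 1381116 per old cell, so shares of cells with a read were taken after thinning each cell to 100000 reads.

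The proximal promoters of Lpar4 and Plpp3 are shown for the size of their log2 fold changes. Among the members, Lpar4 had the widest between old and newborn sums and Plpp3 the widest between young and newborn sums. Lpar4 was read in few cells. The RefSeq promoter table (GRCm38.p6) matched 4 of the 6 members, with no entry for Enpp2 and Plpp1. Each line below holds the 250 bases before the annotated start, 5′ to 3′, on the plus strand (Lpar4 at chrX:106920375-106920624 and Plpp3 at chr4:105157097-105157346). Capitals mark any match of a CCAAT box, of a GC box spelled GGGCGG or of a TATA box spelled TATAAA, searched on both strands.
Lpar4: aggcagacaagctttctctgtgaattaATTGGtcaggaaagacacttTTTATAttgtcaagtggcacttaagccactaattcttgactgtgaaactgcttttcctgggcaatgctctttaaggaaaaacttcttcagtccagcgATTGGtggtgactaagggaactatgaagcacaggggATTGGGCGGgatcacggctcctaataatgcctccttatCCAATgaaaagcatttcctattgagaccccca
Plpp3: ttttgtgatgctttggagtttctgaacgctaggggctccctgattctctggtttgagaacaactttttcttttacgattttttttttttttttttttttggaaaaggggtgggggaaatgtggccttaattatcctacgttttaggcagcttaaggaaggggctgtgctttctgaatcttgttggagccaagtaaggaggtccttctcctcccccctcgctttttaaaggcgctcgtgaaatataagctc
The Lpar4 window held CCAAT 4 times, GGGCGG 1 time and TATAAA 1 time, and 1 CCAAT match overlapped the GGGCGG match. The Plpp3 window held none of these letters. Among 32841 windows of the same length, 33.9% held CCAAT, 32.7% GGGCGG and 12.4% TATAAA. The Lpar4 window had 3 CpG and the Plpp3 window 6, against a median of 6 over all windows.

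Enpp2 (chromosome 15, 54838901 to 54952892, minus strand, GRCm38) was lowest in young cells and highest in old cells. Its level was 225.5 and 226.4 CPM in the newborn sums of experiments 1 and 2, 113.0 and 111.6 CPM in the young sums and 446.8 and 357.4 CPM in the old sums. The ages did not overlap, and the order young, newborn, old was the same in both experiments. Means were 225.9 ± 0.657, 112.3 ± 0.98 and 402.1 ± 63.2 CPM (SD, n = 2), so old sums were 3.58-fold higher than young sums. On each of the 9 plates, the old cells had a higher Enpp2 level and a higher share of cells with a read than the young cells. The plates divide the same sums on which Enpp2 was chosen and are not replicates of age, so this too is a description. The level in young cells ran from 0.073 to 288 CPM between plates. Young cells were below newborn cells in level on 7 of 9 plates. Old cells were above newborn cells in level on 8 of 9 plates and in share on 6 of 9.

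**Figure D1:**
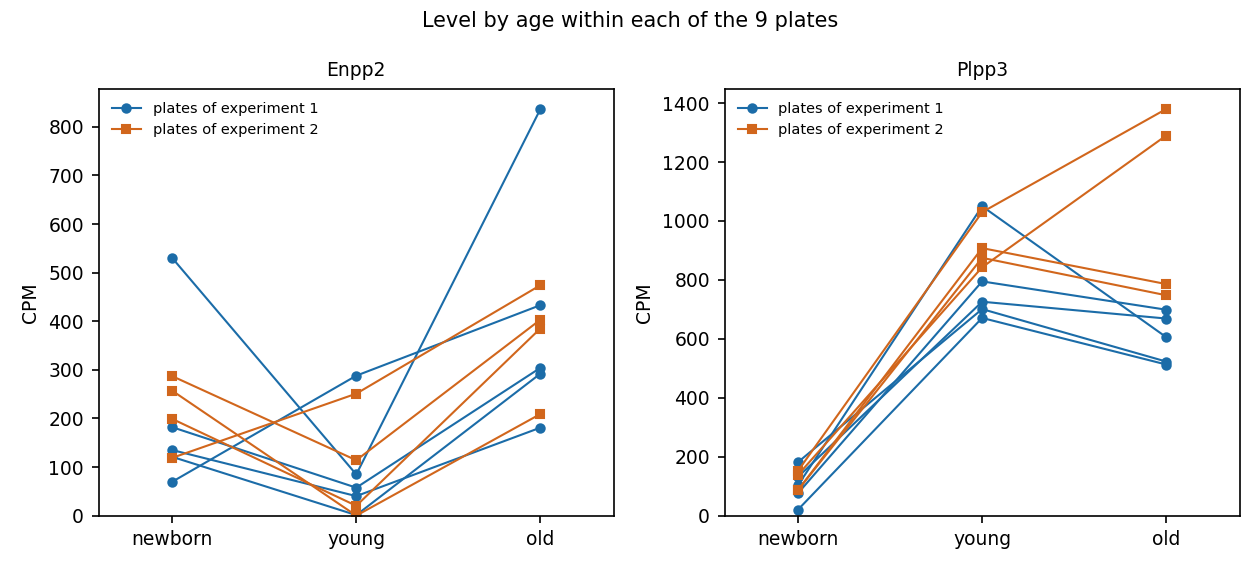
CPM of Enpp2 (left) and Plpp3 (right) on the y axis against age on the x axis, 1 line per plate, circles for the 5 plates of experiment 1 and squares for the 4 plates of experiment 2. Every Enpp2 line is higher in old than in young cells, and every Plpp3 line is higher in young and in old than in newborn cells. The plates divide the sums on which Enpp2 was chosen and are not replicates of age.

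Enpp2 was read in a minority of cells at every age. The shares were 14.6 and 19.8% of the newborn, 6.34 and 9.62% of the young and 20.6 and 21.9% of old cells in experiments 1 and 2. Over both experiments 41 of 249 newborn cells (16.5%, exact 95% interval 12.1 to 21.7%), 19 of 246 young cells (7.72%, 4.71 to 11.8%) and 51 of 240 old cells (21.2%, 16.3 to 27.0%) had a read. The intervals cover the counting of cells only and are no test between ages. Within experiments the share was lowest in young cells, and old and newborn shares lay close in experiment 2. In cells with a read, the median level was 900 CPM in newborn, 730 CPM in the young and 1360 CPM in old cells. Both values were lowest in young cells, and the intervals of the newborn and old shares overlapped.

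A few cells held much of the Enpp2 signal. The cell with the most Enpp2 reads held 43.6 and 18.6% of the reads of the newborn sums, 61.3 and 24.2% of the young sums and 26.2 and 13.7% of the old sums. Without that cell in each sum the levels were 128 and 186, 44.2 and 85.5, and 333 and 311 CPM, and the mean of old sums was 4.97-fold that of young sums. The close match of the newborn sums in the full data was not kept without those cells. Without the cells that had a read of a marker of another cell type, leaving aside the 5 commonest markers Krt10, Plvap, Kcnj8, Csf1r and Rspo3, the levels were 99.9 and 248, 116 and 111, and 473 and 312 CPM. In that subset the newborn sum of experiment 1 no longer lay above the young sums, whereas both old sums did. Without the cells that had a read of any such marker, the common ones included, 27 to 66 cells were left in each sum and the levels were 128 and 411, 27.5 and 166, and 813 and 477 CPM. There too both old sums lay above all others, whereas newborn and young sums overlapped. These subsets were chosen after seeing the data.

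With edgeR's quasi-likelihood test and Benjamini-Hochberg adjustment, Enpp2 did not pass the threshold against newborn cells, either for young cells (log2 fold change -1.01 ± 0.22 SE, adjusted p = 0.163) or for old cells (0.83 ± 0.22, adjusted p = 0.201). DESeq2 called both (adjusted p = 1.61e-06 and 0.000146). Both comparisons use sums on which Enpp2 was chosen, so neither p-value is independent support for a difference. Enpp2 overlaps Gm26684 on the opposite strand over 823 bases; Gm26684 had no read in any sum.

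Cells with Enpp2 carried most of the fibroblast genes. Col1a1, Col1a2, Dcn and Lum were each read in at least 88.5% of the cells with an Enpp2 read in every sum, and Pdgfra, also among the stained markers, in 11.1 to 50% of them. In the other cells Pdgfra was read in 17.0 to 50.7%. In newborn cells the median level of Lum, a collagen-binding proteoglycan, was 6630 CPM in cells with Enpp2 against 16600 CPM in the other cells of experiment 1, and 3440 against 12200 CPM in experiment 2. Col1a1, Col1a2 and Dcn were lower beside Enpp2 in newborn cells of both experiments too, with medians for Dcn of 10100 against 19500 CPM and 6720 against 13900 CPM. Cd34, a further listed fibroblast marker, went both ways there, at 580 against 380 CPM and 300 against 600 CPM. It also went both ways in young cells, at 3100 against 2900 CPM and 2240 against 3740 CPM. In old cells Cd34 was lower beside Enpp2, at 1780 against 2530 CPM and 3440 against 4120 CPM. In young cells the medians of Lum were 20100 against 15500 CPM and 13000 against 15200 CPM, and those of Col1a1 were 14400 against 16300 CPM and 2750 against 11900 CPM. Col1a2 went both ways in young cells, at 25000 against 19000 CPM and 3180 against 16700 CPM. Dcn was higher beside Enpp2 there, at 118000 against 95200 CPM and 106000 against 96400 CPM. In old cells the corresponding medians of Lum were 15700 against 15600 CPM and 16500 against 15400 CPM. Those of Col1a1 were 1260 against 1280 CPM and 1240 against 990 CPM. Those of Col1a2 were 1980 against 3400 CPM and 3240 against 3350 CPM, and those of Dcn 99500 against 103000 CPM and 110000 against 111000 CPM. Lum was thus lower beside Enpp2 in newborn cells of both experiments and went both ways in young cells; no test was run across cells.

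**Figure D2:**
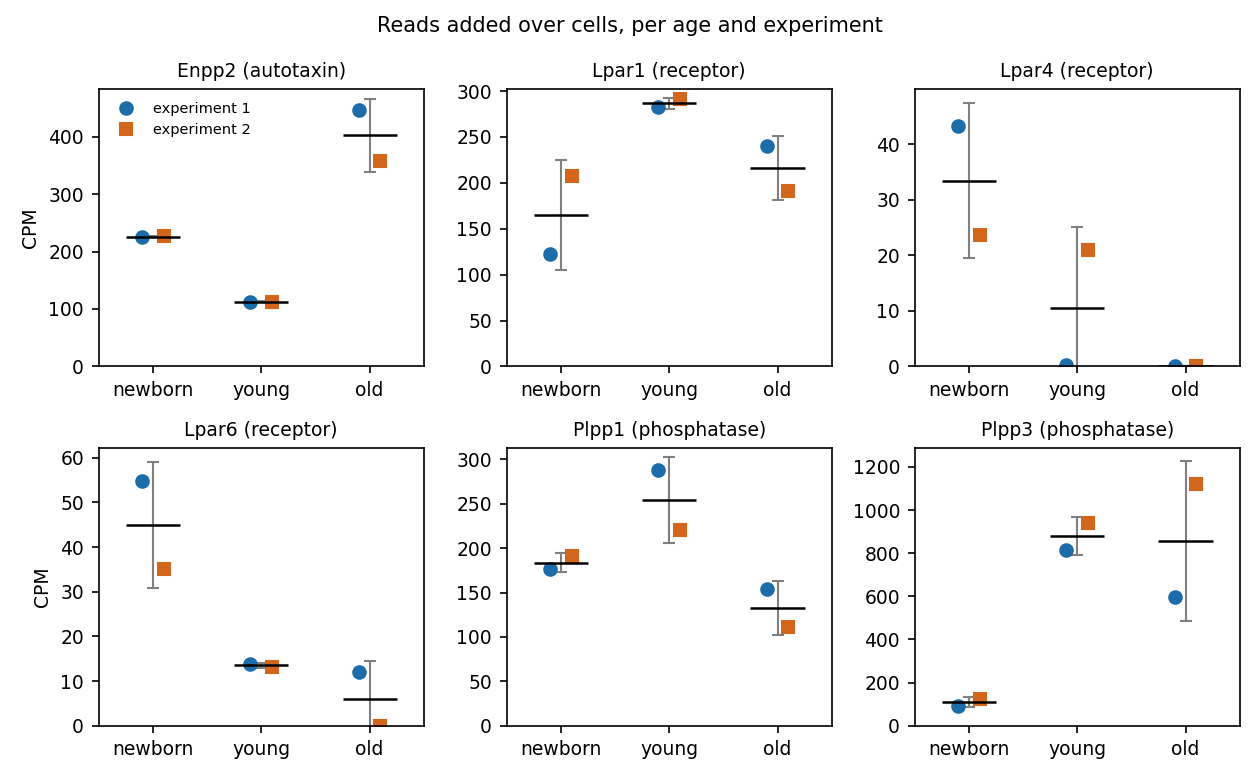
CPM of each of the 6 members on the y axis (scale differs by panel) against age on the x axis; circles and squares are the sums of experiments 1 and 2, the black line their mean and the grey bar the SD (n = 2, cut at 0). Enpp2 is lowest in young sums, Plpp3 lies at 92.55 and 124.5 in newborn sums and at 596.1 or more in adult sums, and Lpar4 is near 0 in both old sums.

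Lpar1 (chromosome 4, 58435255 to 58553898, minus strand) was the receptor read in the most cells at every age. Its level was 122.2 and 207.4 CPM in newborn, 282.5 and 291.0 CPM in the young and 240.7 and 191.4 CPM in old sums. Young sums lay above all others, and newborn and old sums overlapped. Without cells that had a read of any marker of another type, the levels were 146 and 221, 193 and 281, and 267 and 180 CPM. In that subset the ages overlapped. Lpar1 was read in 37.3 and 46.2% of the newborn, 52.8 and 58.7% of the young and 49.2 and 55.3% of old cells. None of the 3 age differences passed the edgeR test (log2 fold change 0.80 ± 0.32 SE, adjusted p = 0.395, for young against newborn).

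Lpar4 (chromosome X, 106920625 to 106933900, plus strand), a receptor of the purinergic cluster, was read in few cells. Its level was 43.29 and 23.61 CPM in newborn, 0.3148 and 20.86 CPM in the young and 0 and 0.01113 CPM in old sums. Reads came from 6 and 5 newborn cells, 1 and 5 young cells and, in old cells, 0 cells of experiment 1 and 1 cell of experiment 2. The 0 of 126 old cells allows a share of up to 2.38%. The old sums held 2 reads in all against 12304 in newborn sums, a ratio of 5770 after scaling to library size (1600 to 47600, exact counting interval of reads). That interval takes reads as independent, whereas reads of 1 cell are copies of few molecules, so it does not cover the spread between cells. The difference between old and newborn sums did not pass the edgeR test (adjusted p = 0.187) and passed with DESeq2 (adjusted p = 8.34e-08). The young sums differed widely from each other, so young cells were not placed between the other ages.

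Lpar6 (chromosome 14, 73237895 to 73243294, plus strand), a receptor known for its role in hair growth, also came from few cells. Its level was 54.92 and 35.03 CPM in newborn, 13.87 and 13.13 CPM in the young and 11.97 and 0 CPM in old sums. Every newborn sum lay above every adult sum, and no difference passed the edgeR test (adjusted p = 0.884 for young and 0.712 for old against newborn). Lpar6 was read in 16 and 5 newborn cells, 1 and 4 young cells and 2 and 0 old cells. The gene lies wholly inside Rb1 on the opposite strand. Rb1 itself was at 10.63 and 10.76, 16.19 and 7.242, and 27.81 and 1.063 CPM, and whether the counting used strand is not given in the sources used here. Lpar2, Lpar3 and Lpar5, the remaining LPA receptors of the family, had no read in any sum.

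Plpp1 (chromosome 13, 112800792 to 112867894, plus strand) was lowest in old cells. Its level was 176.0 and 191.5 CPM in newborn, 288.5 and 220.5 CPM in the young and 154.4 and 111.2 CPM in old sums. The ages did not overlap. Plpp1 was read in 24.7 and 36.3% of the newborn, 35.2 and 32.7% of the young and 19.8 and 18.4% of old cells, and the share was lower in old than in young cells on each of the 9 plates. Its level was lower in old than in young cells on 8 of 9 plates and lower in old than in newborn cells on 6 of 9, with a median log2 ratio of -0.07 for the latter. Without cells that had a read of any marker of another type, the old sums were at 236 and 123 CPM and overlapped both other ages. The difference between old and young sums did not pass the edgeR test (log2 fold change -0.94 ± 0.28 SE, adjusted p = 0.906), and passed with DESeq2 (adjusted p = 0.0203). The last 477 bases of Plpp1 overlap Mtrex on the opposite strand.

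Plpp3 (chromosome 4, 105157347 to 105232764, plus strand) showed the widest difference between newborn and adult cells among members read in many cells. Its level was 92.55 and 124.5 CPM in newborn, 816.5 and 941.3 CPM in the young and 596.1 and 1121 CPM in old sums. Every adult sum lay above both newborn sums, and the old sums spanned the young ones. Means were 108.5 ± 22.6, 878.9 ± 88.3 and 858.5 ± 371 CPM (SD, n = 2), 8.10-fold higher in young and 7.91-fold higher in old than in newborn sums. The gene had a read in 28.5 and 35.2% of newborn cells, 85.9 and 87.5% of young cells and 69.8 and 86.8% of old cells. The median level in cells with a read was 320 CPM in newborn, 720 CPM in the young and 840 CPM in old cells. Young and old cells were above newborn cells in level and in share on each of the 9 plates.

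Plpp3 missed the edgeR threshold narrowly in both comparisons (log2 fold change 3.02 ± 0.39 SE for young and 2.98 ± 0.39 for old against newborn, adjusted p = 0.0584 for each). It passed in 5 of 15 alternative fits of each comparison, among them the fit restricted to genes with a read in 10% or more of an age's cells (adjusted p = 0.00261 and 0.00218). Over the alternatives the adjusted p ranged from 1.58e-12 to 0.26 for young and from 3.34e-12 to 0.241 for old against newborn. Between old and young sums the log2 fold change was -0.03 ± 0.36 SE (adjusted p = 1), and the sign differed between experiments.

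**Figure D3:**
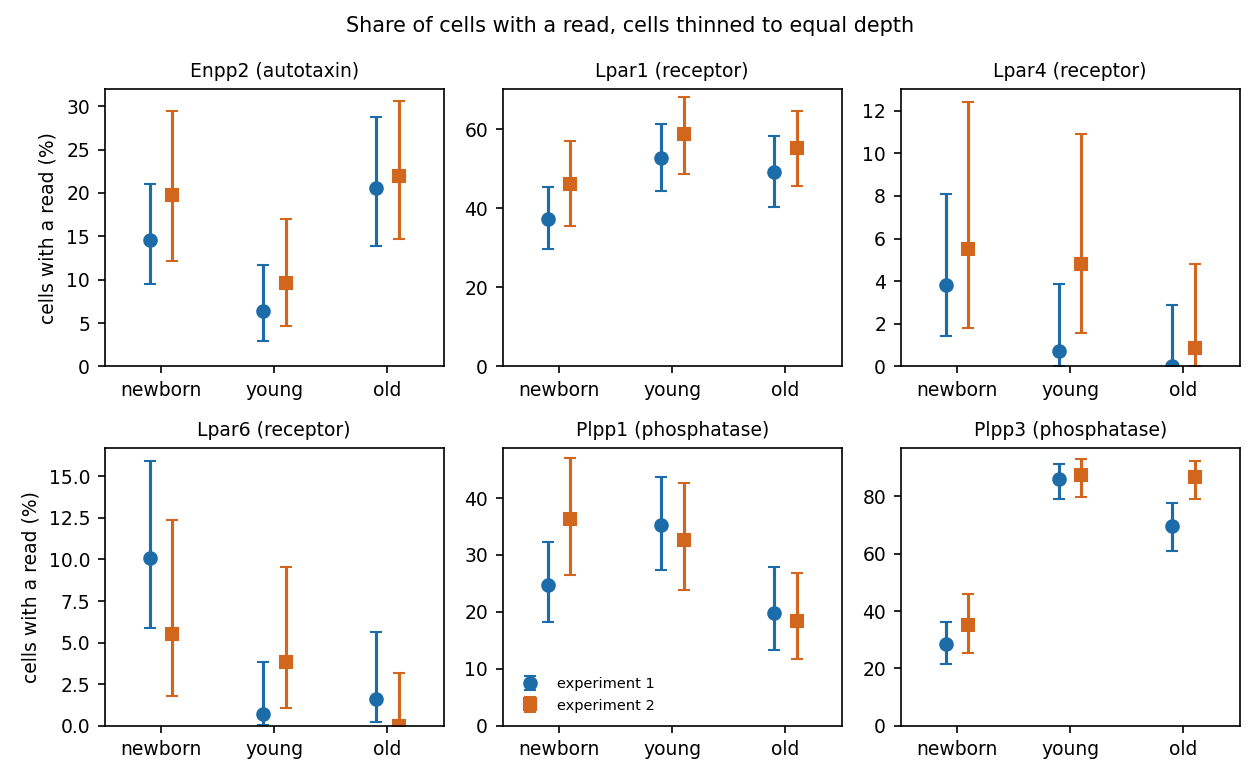
Percent of cells with a read on the y axis (scale differs by panel) against age on the x axis, cells thinned to 100000 reads; circles and squares are experiments 1 and 2 and bars are exact 95% intervals of the counting of cells. Plpp3 lies at 28.5 and 35.2% in newborn cells and at 69.8% or more in adult cells, and Enpp2 is lowest in young cells of both experiments.

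With edgeR, 0 of 6 members passed between young and newborn sums, where 0.779% of all 16684 genes tested did. Between old and newborn sums 0 of 6 passed, against 0.935% of all genes (25 and 51 genes passed with the experiment as a block, in place of 130 and 156), and between old and young sums 0 of the 5 members other than Enpp2, against 0.0%. All 6 members passed the filter on low counts. At an unadjusted p under 0.05 there was 1 of the 5 members other than Enpp2 for young against newborn, beside 13.3% of all genes. For old against newborn there were 2 of 5, beside 15.2%. For old against young there were 2 of the 5 members other than Enpp2, beside 4.85% of all genes. DESeq2 called 1 of these 5 for young against newborn (14.3% of all genes). It called 2 of 5 for old against newborn (17.1%) and 2 of 5 for old against young (6.28%). Limma on mean log levels per cell called 1 of 5 (6.55%), 2 of 5 (8.48%) and 0 of 5 (0.0%) in the same order. Enpp2 was left out of the counts of 5 because its young and old sums were those it was chosen on, whereas the counts of 6 include it.

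Per kilobase of exon, which allows levels of different genes to be compared, the order of the members changed with age. In newborn cells Plpp1 led at 105 CPM per kb, followed by Enpp2 at 39.1, Lpar1 at 38.4 and Plpp3 at 34.4 CPM per kb; the last 3 did not differ beyond the spread between sums. In young cells Plpp3 led at 278 CPM per kb, followed by Plpp1 at 145, Lpar1 at 66.9 and Enpp2 at 19.4 CPM per kb, with no overlap between neighbours. In old cells Plpp3 stood at 272, Plpp1 at 75.9, Enpp2 at 69.6 and Lpar1 at 50.4 CPM per kb, and the sums of Plpp1 and Enpp2 overlapped. Lpar6 and Lpar4 were last at each age, at 8.33 and 7.89 CPM per kb in newborn cells.

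Within single cells the members co-varied weakly. Across the cells of a sum (91 to 158 cells, which share a library preparation), the rank correlation of Enpp2 with Lpar1 ran from -0.08 to 0.10 and that with Plpp3 from -0.18 to 0.17. Over all 15 pairs the median over the sums lay between -0.08 (Lpar1 with Lpar6) and 0.13 (Lpar4 with Lpar6). The pair of Lpar4 and Lpar6 could be given for 4 sums and ran from -0.04 to 0.36, with 3 and 2 newborn cells that held both genes. Correlations this weak in sparse counts are no finding. Enpp2 and Lpar1 were read together in 11 and 15 old cells (8.73 and 13.2%), against 10.2 and 12.1% from the product of their shares.

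Cells with any of the 3 receptors were 45.6 and 50.5% of the newborn, 53.5 and 61.5% of the young and 49.2 and 55.3% of old cells. Cells with either phosphatase were 44.3 and 59.3%, 90.8 and 90.4%, and 74.6 and 88.6%. Enpp2 together with a receptor was read in 8.23 and 9.89% of the newborn, 2.11 and 5.77% of the young and 8.73 and 13.2% of old cells. None of the 6 genes had a read in 31.6 and 17.6% of newborn cells, 4.93 and 0.962% of young cells and 7.94 and 2.63% of old cells. The phosphatase shares of newborn and adult cells did not overlap, whereas the receptor shares of newborn and old cells did.

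**Figure D4:**
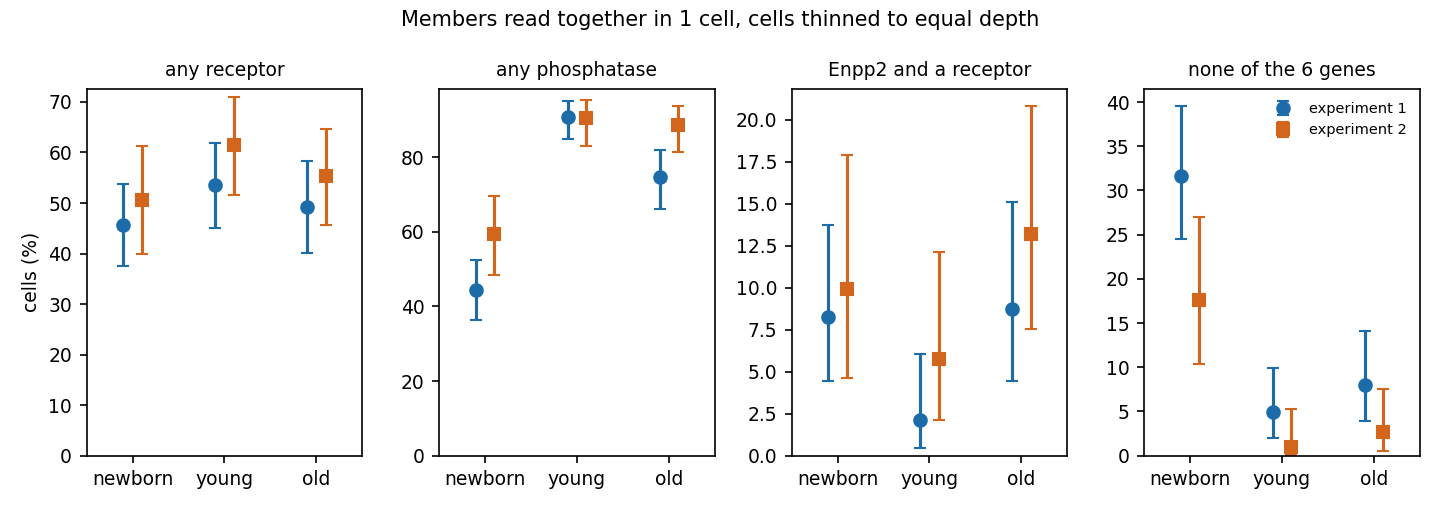
Percent of cells on the y axis (scale differs by panel) against age on the x axis for cells with a read of any receptor, of either phosphatase, of Enpp2 together with a receptor, and of none of the 6 genes; circles and squares are experiments 1 and 2 and bars are exact 95% intervals. Cells with a phosphatase lie at 44.3 and 59.3% in newborn and at 74.6% or more in adult cells.

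The 5 genes whose levels over the 6 sums lay nearest to those of Enpp2, by root mean square difference of centred log2(CPM + 1) among 5843 genes, were Sec61a2, Cep57, Rcbtb2, Trap1 and Med6. Sec61a2, a subunit of the protein translocation channel, was nearest at 0.08 and stood at 67.2 and 60.4, 31.9 and 30.4, and 115 and 91.8 CPM. Across cells the rule for likeness named 0 genes, since Enpp2 reached a share of 20% in 2 of the 3 sums needed.

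Around the members, 79 further genes of LPA and sphingosine 1-phosphate biology were listed in 8 groups, and 59 could be tested. With edgeR, 3 passed between young and newborn sums (0.779% of all genes did) and 3 between old and newborn sums (0.935%). DESeq2 called 14 and 15 of the 59 in these comparisons and limma 9 and 9. Between old and young sums edgeR passed 0, with 3 at an unadjusted p under 0.05, DESeq2 5 and limma 0. Among genes of LPA and lysophospholipid synthesis, 2 of 15 tested were higher in both adult ages and none lower, with a median log2 fold change of 2.3 for young against newborn sums beside -0.07 over all genes (the median was the same with genes at 0 in all sums of an age set to the limit of 3 reads). For young against newborn sums 10 of the 15 genes lay above 0 and 5 below, and the gene at the median had an SE of 2.87. For old against newborn sums the median was 1.55, with 13 above 0 and 2 below. The list was not tested as a set. The 2 genes that passed were Pla1a, a phospholipase that makes lysophosphatidylserine, and Pla2g2e, a secreted phospholipase A2. Pla1a had no read in newborn sums and was at 46.39 and 96.68 CPM in the young and 47.89 and 101.3 CPM in old sums (adjusted p = 0.0387 and 0.0335 against newborn, and 0.0525 and 0.0511 with the experiment as a block).

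Pla2g2e was at 0 and 0.01404 CPM in newborn, 73.97 and 91.32 CPM in the young and 79.41 and 81.68 CPM in old sums (adjusted p = 0.0222 and 0.0194, and 0.0741 and 0.0663 with the block). It was read in 38.0 and 50% of the young and 38.9 and 45.6% of old cells. Among 9 tested genes known to respond to LPA, 1 passed as lower in both adult ages: Ccn1, a matricellular protein gene, fell from 5506 and 5068 CPM in newborn to 1268 and 1486 CPM in the young and 804.6 and 838.9 CPM in old sums (adjusted p = 0.0243 and 0.0106, and 0.0549 and 0.0407 with the block). The list did not move as Ccn1 did. For young against newborn sums 6 of the 9 genes lay above 0 and 3 below, with a median log2 fold change of 0.82. For old against newborn sums 5 lay above 0 and 4 below, with a median of 0.87. None of the genes above 0 passed. Of the 6 calls, that of Ccn1 in old against newborn sums alone passed with the block. Leaving out any single sum ended most of them, with adjusted p of up to 0.175 for Pla1a, 0.15 for Pla2g2e and 0.195 for Ccn1.

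No gene passed among 3 tested relatives of autotaxin, 5 further phosphatases, 7 genes of LPA removal inside the cell and 7 genes of the sphingosine 1-phosphate arm. The median log2 fold changes of these groups for young against newborn sums were 2.94, -1.8, -0.5 and 0.34 in that order, beside -0.07 over all genes. The genes at these medians had an SE of 2.21, 1.26, 0.62 and 0.56. For old against newborn sums the medians were 4.44, -0.36, -0.79 and 0.14, beside -0.08 over all genes. These groups were not tested as sets. Enpp5, a relative of autotaxin, was at 16.28 and 0.01404 CPM in newborn, 81.02 and 43.93 CPM in the young and 147.8 and 205.7 CPM in old sums (adjusted p = 0.477 for old against newborn). S1pr1, a sphingosine 1-phosphate receptor, was at 43.71 and 15.17 CPM in newborn sums and had no read in the 4 adult sums (adjusted p = 0.172 for young against newborn). S1pr3, of the same receptor family, was at 119.4 and 99.74 CPM in newborn, 0 in both young and 0 and 7.447 CPM in old sums (adjusted p = 0.284 for young against newborn). S1pr2, a further receptor of that family, had mean levels of 43.7, 55.2 and 49.5 CPM at the newborn, young and old age, and Sphk1, a sphingosine kinase, of 9.42, 74.6 and 56.8 CPM (adjusted p = 0.909 and 0.141 for young against newborn). Plpp5, the most abundant of the further phosphatases, had mean levels of 88.9, 123 and 85.8 CPM at these ages (adjusted p = 0.781). Agpat2, an acyltransferase that turns LPA into phosphatidic acid, had mean levels of 20.0, 36.7 and 17.5 CPM (adjusted p = 0.582).

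Markers of other cell types also differed between ages. Summed endothelial markers were at 23.5 and 5.65 CPM in newborn, 82.0 and 44.5 CPM in the young and 74.3 and 63.2 CPM in old sums. Plvap made up most of the adult values, and Cdh5, Tie1 and Emcn were at 0. Pecam1 of that list went the other way, at 11.4 and 0 CPM in newborn, 0 and 1.6 CPM in the young and 0 CPM in old sums. Kdr was at 0 in newborn, 5.3 and 3.19 CPM in the young and 6.91 and 13.8 CPM in old sums. Summed dermal papilla markers, mostly Rspo3, were at 117 and 90.9 CPM in newborn and at most 5.63 CPM in adult sums, with Corin and Sox2 at 0. Csf1r, a macrophage receptor gene and most of the immune list, was at 0.896 and 0 CPM in newborn, 160 and 36.7 CPM in the young and 10.5 and 12.7 CPM in old sums. Kcnj8, a channel gene of mural cells, was at 0 and 4.90 CPM in newborn sums and at 51.0 to 121 CPM in adult sums. Acta2, of the same mural list, went the other way, at 14.7 and 94.7 CPM in newborn and at most 10.8 CPM in adult sums. Rgs5 of that list was at 0 in every sum. Krt10, a keratin gene of keratinocytes, was at 22.4 and 15.8 CPM in newborn sums and at 43.6 to 59.9 CPM in adult sums. Krt5 of the same list was at 5.11 and 1.07 CPM in newborn sums and at 0 in adult sums. Krt15 was at 10.4 and 0 CPM in newborn and at most 1.42 CPM in adult sums. Krt14 was at 5.45 and 0.197 CPM in newborn sums, 11.1 CPM in the old sum of experiment 1 and 0 in the other adult sums. Without the cells that had a read of any marker of another type, the Plpp3 levels were 59.1 and 159 CPM in newborn, 888 and 897 CPM in the young and 557 and 1030 CPM in old sums.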

How the data were processed

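The authors deposited whole-number read counts, a table for every plate with genes as rows and cells as columns. GRCm38 and FastQC appear in the submitters' processing notes. Which aligner, counter and strand setting were used is not stated. Of 1049 labelled columns, 1044 held values. Of 11 deposited plates, 2 pairs matched well by well (median r 0.9944 and 0.9942) and were added as runs of the same plate (183 wells), which left 861 wells on 9 plates. Genes common to both annotations (51777) were kept, 51633 of them matched to GENCODE M21.

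Cells with at least 50000 reads, 1000 genes and at most 25% mitochondrial reads were kept (735). Ages were compared on 6 sums with edgeR 4.0.16 in R 4.3.3 (TMM, filterByExpr, robust quasi-likelihood fit, 16684 genes, Benjamini-Hochberg threshold 0.05, 3 residual degrees of freedom). The fit was also run on simulated sums. The changes added there were larger than those of every member but Lpar4, so that run does not cover changes of their size. DESeq2 1.42.0 and limma 3.58.1 were alternatives. The labels give the experiment as a batch shared by the ages, which pairs the sums; deviations of paired sums from their age means correlated at -0.0026 to 0.0099 across genes. The fit had no block, and a fit with the experiment as a replicate block was an alternative. Shares carry exact (Clopper-Pearson) 95% intervals, and a count of 0 cells allows 3; neither covers amplification, as no molecular identifiers were used. Plate levels use the TMM factor of their sum.

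Members and gene lists were chosen with earlier results of these data known. Named were all 6 members, genes of each list past the threshold or otherwise among the 3 highest in mean CPM, and the 5 genes nearest to Enpp2 over the sums. S1pr1 and S1pr3 lie outside that rule and were named after their values were seen. The results of 1 of the 8 lists are not reported here.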

Additional observations from a re-analysis of the deposited data

Results flagged for a closer look

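In 2 cases the experiments moved in opposite directions, which was not tested, since each experiment gave 1 sum per age. Plpp3 between old and young sums had a log2 ratio of -0.45 in experiment 1 and 0.25 in experiment 2. Lpar1 between old and newborn sums had a log2 ratio of 0.98 in experiment 1 and -0.12 in experiment 2.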

How the results depend on the processing

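Among 45 counts of called members under alternatives, 34 equalled the reported 0. DESeq2 called 2 members between young and newborn, 3 between old and young and 3 between old and newborn sums. Enpp2 was among them in each comparison, and its young and old sums were those it was chosen on. Thinning cells to equal reads, keeping only genes with a read in 10% or more of an age's cells, and using no filter on low counts each called 1 member (Plpp3) against newborn sums for both adult ages. Limma on mean log levels called 1 (young) and 2 (old; Plpp3 and Lpar6). With the replicate block (experiment number), 0 members were called and the log2 fold changes of Plpp3 were 3.04 and 2.94; besides the 5 calls of listed genes named above, it ended or made no call among the genes named. Leaving out each sum in turn called 0 members in every case.

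The log2 fold change of Enpp2 between old and young sums, 1.84, was 2.14 with thinned cells, 1.38 with limma on mean log levels, 2.38 as the median within plates, 2.3 without the top cell of each sum, 2.73 without cells with any marker of another type (both alternatives chosen after seeing the data) and 1.65 to 1.99 leaving out each sum in turn. Of 336 values of members under alternatives, 4 reversed. Plpp1 between old and newborn sums was 0.2 without cells with any marker of another type. Lpar6 between old and young sums was 0.05 with the stricter cell filter, and Plpp3 between old and young sums was 0.34 without old replicate 1 and 0.07 without young replicate 2, with a range of -0.56 to 0.34 leaving out each sum in turn. Leaving out the young sum of experiment 2 moved Lpar4 between young and newborn from -1.66 to -6.72.

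Over all genes, edgeR called 130 (young against newborn), 0 (old against young) and 156 (old against newborn); DESeq2 called 2380, 1048 and 2850, thinned cells 266, 0 and 307, the 10% filter 491, 14 and 538, limma 1092, 0 and 1414, the replicate block 25, 0 and 51, and no filter on low counts 185, 2 and 208. Leaving out each sum in turn gave 0 to 42, 0 and 0 to 47. Of 180 shares of cells, 174 stayed within their counting interval, and all 30 correlations moved by less than their spread over sums. With 2 sums per age, members read in fewer than 10 cells of a sum rest on single cells.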
